A study of Mus musculus with 32 samples.

Results

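The genes described here are 10 genes of iron storage and transport in the mouse spinal cord, chosen by name from the 42524 genes of the count table. They are Fth1 and Ftl1 (ferritin), Trf, Tfrc, Steap3 and Slc11a2 (uptake from transferrin), Slc11a1 (phagosomal iron transport), Slc40a1 and Cp (export) and Ireb2 (iron sensing). The cords came from 32 mice, 4 in each of 8 groups, and their polyadenylated RNA was sequenced. The G93A mice carry a human SOD1 transgene with the G93A mutation, from the line B6-Tg(SOD1-G93A)1Gur/J kept on C57BL/6J, and serve as a model of amyotrophic lateral sclerosis (ALS). Their wild-type (WT) littermates carry no transgene. At both 90 and 155 days there were 4 groups, untreated WT, WT given the nitrone OKN-007 in the drinking water, untreated G93A, and G93A given OKN-007. The earlier age is that of the labels, and the study's own text puts early mice at a slightly later age. Mice of the experiments were predominantly female, and the dose and starting age of OKN-007 in the sequenced mice were not assigned here. In this line the human gene's own promoter drives many copies of the mutant enzyme in most cell types, on top of the mouse enzyme, and the human transcript has no row in the mouse table.

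Cells store iron inside ferritin, a shell built from heavy chains, which oxidise iron, and light chains, which help it to mineralise. Plasma iron travels on transferrin, enters by the transferrin receptor, is reduced in the endosome and is carried into the cytosol, while ferroportin is the exporter and works together with ferroxidases such as ceruloplasmin. In the spinal cord, oligodendrocytes are rich in ferritin and transferrin mRNA, and microglia and macrophages take up and recycle iron. When cytosolic iron is low, the iron regulatory proteins bind hairpins called iron-responsive elements. Binding in the 5′ UTR of ferritin or ferroportin mRNA holds back translation, and binding in the 3′ UTR of the transferrin receptor mRNA protects that mRNA from decay.

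The hairpins are shown first because those of a 5′ UTR act on translation, while the 3′ UTR hairpins of Tfrc act on mRNA decay. A hairpin with a loop CAGTGN, a fully paired upper stem of 5 base pairs and a bulged C was searched on the sense strand of GENCODE M21 transcripts (GRCm38) and found in a UTR of 4 of the 10 genes. In the lines that follow, each of 27 bases and written with T for U, the capitals mark the loop.
Fth1, 5′ UTR: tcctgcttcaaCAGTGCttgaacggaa
Ftl1, 5′ UTR: tcttgcttcaaCAGTGTttgaacggaa
Slc40a1, 5′ UTR: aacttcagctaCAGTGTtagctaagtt
Tfrc, 3′ UTR, start 3316: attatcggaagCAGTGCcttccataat
Tfrc, 3′ UTR, start 3695: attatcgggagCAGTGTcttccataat
Tfrc, 3′ UTR, start 3760: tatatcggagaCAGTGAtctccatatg
Tfrc, 3′ UTR, start 3807: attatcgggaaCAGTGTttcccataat
The Ftl1 hairpin starts at base 79 of its transcript, that of Slc40a1 at base 91, and those of Tfrc at bases 3316, 3695, 3760 and 3807, counted from 1 at the 5′ end. In Fth1 the hairpin lies in 4 transcripts. The Fth1 and Ftl1 hairpins differed at 2 of the 27 positions. Of 20198 coding genes, 7 (0.0347%) held such a hairpin in a 5′ UTR and 11 (0.0545%) in a 3′ UTR. No hairpin of this strict form was found in a UTR of Trf, Steap3, Slc11a1, Slc11a2, Cp or Ireb2, which says only that these letters are not in the transcripts searched.

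Between genes, levels were compared per length, as RPKM (reads per kilobase of exon, scaled to library size) over all 32 mice. The median Fth1 level was 3188 (1657 to 4955) RPKM, where the range over mice stands in parentheses. Trf followed at 676 (479.7 to 997) RPKM, and Ftl1 at 69.5 (43.0 to 218) RPKM. The receptor Tfrc stood at 18.4 (12.1 to 33.5) RPKM. Slc11a2 at 4.38 (3.86 to 4.94) and Ireb2 at 4.10 (2.80 to 5.71) RPKM overlapped in their ranges. The lowest levels were those of Cp at 1.36 (1.07 to 4.07), Slc40a1 at 1.01 (0.601 to 1.496), Slc11a1 at 0.903 (0.426 to 10.7) and Steap3 at 0.672 (0.455 to 1.53) RPKM, and these ranges overlapped too. The 3 most abundant genes were separate in every mouse, while Slc11a1 had the widest relative span of the 10 genes.

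Depth was between 19701722 and 30138257 reads on genes per mouse, with a median of 26658755. A gene with 3 counts in the smallest library stands at 0.152 CPM, the count scaled to library size, and this limit accounts for counting error alone. The lowest count of any of the 10 genes in any mouse was 41, for Slc11a1, so all 10 passed edgeR's filter on low counts in every fit. All levels that follow are CPM after TMM normalization, and tests are edgeR's two-sided quasi-likelihood test with Benjamini-Hochberg adjustment over all genes tested. The labels name no batch. They also do not tie the 25 mg pieces to a segment of the cord, and the caudal Hox score, the mean log2(CPM + 1) of 6 Hox genes of lumbar and sacral cord, ran from 2.95 to 4.16 in WT and from 0.555 to 2.99 in G93A mice at 155 days. In untreated G93A mice at 155 days all 6 neuron markers and 5 of 6 motor neuron markers were lower than in WT. Because the tissue was bulk cord, more cells of a type and more RNA per cell cannot be told apart.

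At 155 days, the spinal cord of untreated G93A mice held more mRNA of 6 of the 10 genes than that of untreated WT mice, and less of 1. Slc11a1 rose 13.3-fold, Ftl1 3.53-fold, Cp 2.34-fold, Steap3 1.95-fold, Trf 1.73-fold and Fth1 1.30-fold, and Tfrc fell 1.46-fold. Slc11a2, Slc40a1 and Ireb2 did not pass the threshold. This comparison called 39.5% of 18675 genes tested, 21.3% as higher and 18.2% as lower. In the OKN-007 treated mice of that age, the same 6 genes were higher in G93A than in WT, and Tfrc missed the threshold, against 41.5% of all genes called, 23.3% as higher. The median log2 fold change was 0.58 over the 10 genes and 0.00015 over all genes tested in untreated mice, and 0.69 and 0.018 in treated mice. In untreated mice the groups did not overlap for 5 of the 10 genes, all above (33.3% of all genes), and in treated mice for 7, 6 above and Tfrc below (45.4%).

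**Figure D1:**
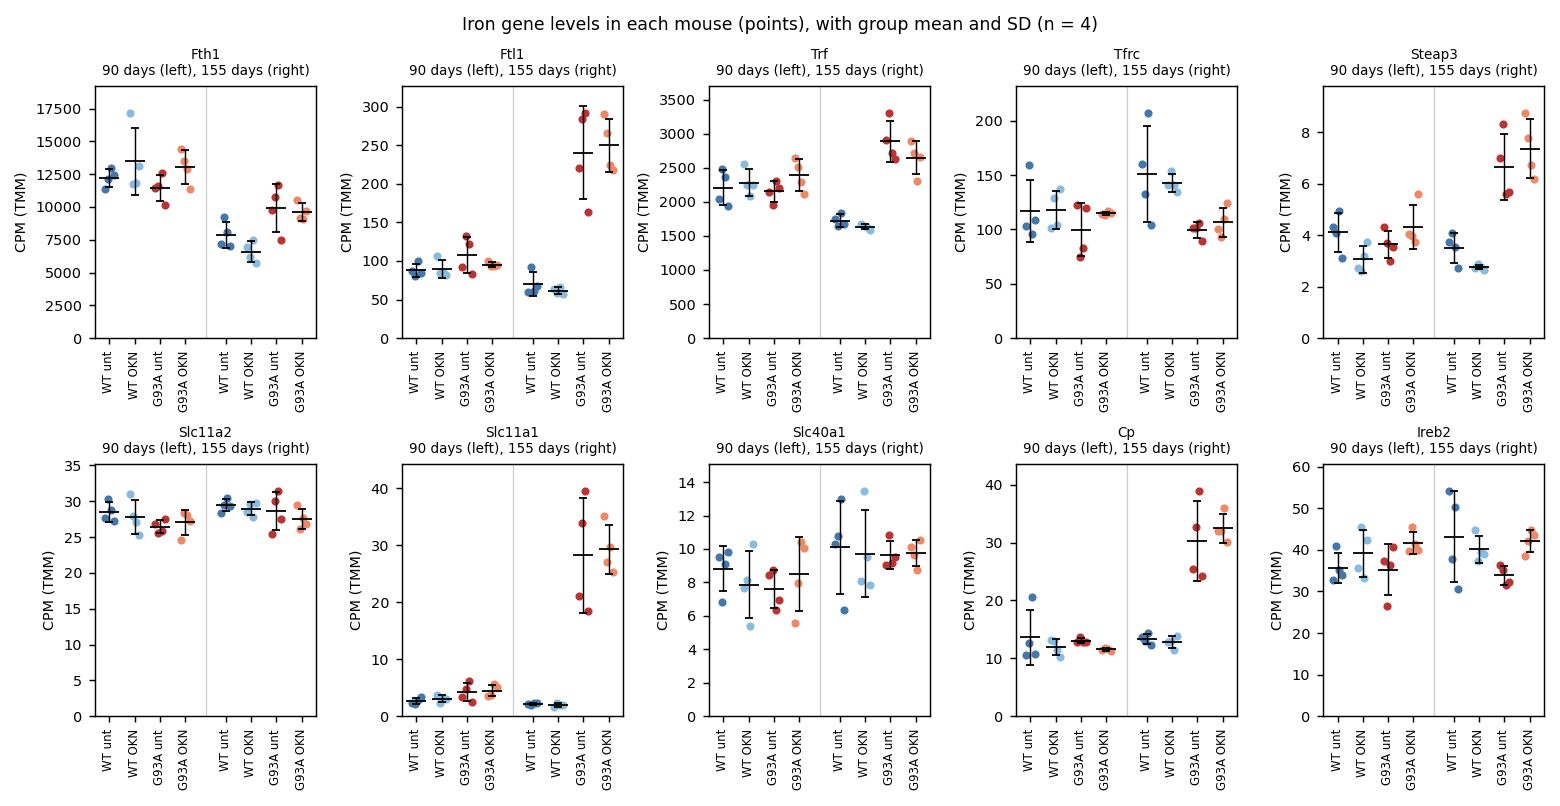
CPM after TMM normalization (linear axes from 0) of the 10 iron genes in each of the 32 mice, by group, with the mean and SD of 4 mice as bars. Slc11a1 sits between 18.5 and 39.5 CPM in untreated G93A mice at 155 days and at or below 2.32 CPM in untreated WT mice of that age, while Slc11a2 stays between 24.6 and 31.4 CPM in all 32 mice.

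Ferritin was represented by both chains. Ftl1, the light chain, stood at 59.4, 92.1, 61.4 and 67.3 CPM in the untreated WT mice at 155 days and at 221, 285, 292 and 164 CPM in the untreated G93A mice. In treated mice it was 63.1, 57.8, 66.8 and 57.6 CPM in WT and 291, 266, 225 and 219 CPM in G93A. Every G93A mouse lay above every WT mouse of its treatment. The difference was 1.82 in untreated mice (SE 0.17, adjusted p = 6.60e-08) and 2.10 in treated mice (SE 0.17, adjusted p = 8.97e-09), as log2 fold changes. Markers of microglia, cells in which ferritin light chain is abundant, rose in the same mice, as given with Slc11a1, and their part in the change of Ftl1 was not tested.

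Fth1, the heavy chain, differed less. Its levels were 7163, 9221, 8079 and 7046 CPM in untreated WT and 9781, 10775, 11675 and 7478 CPM in untreated G93A mice at 155 days. The G93A mouse of replicate 12 lay inside the WT range, and the groups overlapped (log2 fold change 0.38, SE 0.12, adjusted p = 0.0193). That call was lost when only the compared groups were fitted (adjusted p = 0.0649), with the Hox score as covariate (log2 fold change 0.24, adjusted p = 0.257), and without untreated WT replicate 1 or 4 or untreated G93A replicate 10 or 11 (adjusted p between 0.0512 and 0.0683). In treated mice Fth1 was 6933, 6187, 7513 and 5746 CPM in WT and 10527, 9135, 9117 and 9697 CPM in G93A, with no overlap (log2 fold change 0.62, SE 0.12, adjusted p = 0.000478).

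The light chain thus differed more between genotypes than the heavy chain, and the ratio of Fth1 to Ftl1 counts was smaller in G93A than in WT mice at 155 days. At 155 days the log2 ratio was 6.83 ± 0.18 in untreated WT and 5.39 ± 0.13 in untreated G93A mice (SD, n = 4), a difference of -1.44 (exact two-sided permutation test, p = 0.0286, adjusted over 4 comparisons 0.0381). In linear terms, the ratio ran from 100.1 to 131 in the WT and from 37.8 to 45.7 in the G93A mice. In treated mice the difference was -1.47 (exact permutation p = 0.0286, adjusted 0.0381). At 90 days it was -0.369 in untreated mice, with ratios of 87.2 to 123 in G93A against 129.6 to 151 in WT (exact permutation p = 0.0286, adjusted 0.0381), and -0.138 in treated mice (exact permutation p = 0.229). With 4 mice against 4 the smallest p that this test can give is 0.0286. At 90 days the untreated difference missed the threshold without any 1 of the 4 untreated WT mice (exact permutation, adjusted p = 0.114 in each case).

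**Figure D2:**
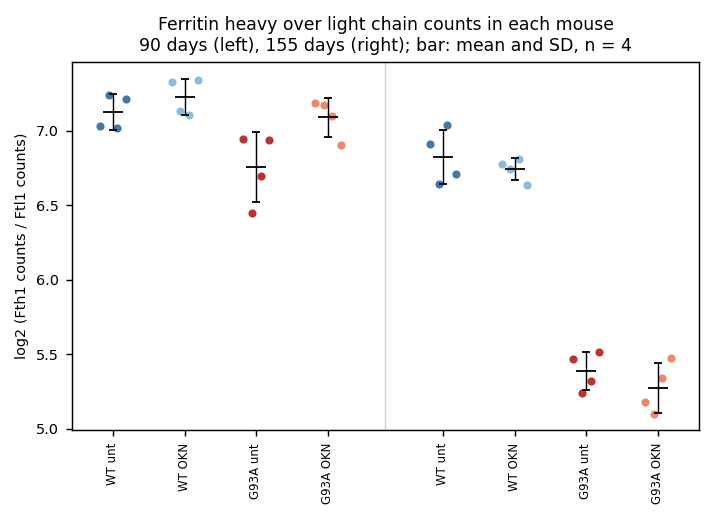
Log2 ratio of Fth1 to Ftl1 counts in each mouse (points) by group, with the mean and SD of 4 mice as bars. At 155 days the untreated G93A mice sit between 5.24 and 5.51 and the untreated WT mice between 6.65 and 7.04.

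The genome holds processed copies of both ferritin genes, so that reads could be lost or shared. Ftl2-ps collected 5.21% as many reads as Ftl1 over the 32 mice, Ftl1-ps1 0.685% and Ftl1-ps2 0.0123%, and Fth-ps2 0.00457% as many as Fth1. Fthl17a and Fth-ps3 had 5 and 6 reads in all. Ftl2-ps and Ftl1-ps1 were higher in untreated G93A mice at 155 days too (log2 fold changes 1.78 and 1.96, edgeR adjusted p = 4.78e-07 and 8.86e-05). These shares cover only reads assigned to a copy. Reads that match a gene and its copy equally may not have been counted, and their number is not known here. The level of Ftl1 relative to other genes, and so the size of the ratio, is therefore uncertain by an unknown amount. With the copies added to their parent genes the ratio comparisons kept their side of the threshold.

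Transferrin (Trf), the iron carrier, was 1747, 1641, 1843 and 1676 CPM in untreated WT and 2906, 3311, 2715 and 2631 CPM in untreated G93A mice at 155 days. In treated mice it was 1677, 1652, 1632 and 1593 CPM in WT and 2893, 2723, 2313 and 2665 CPM in G93A. No G93A mouse overlapped a WT mouse in either treatment (log2 fold change 0.79, SE 0.08, adjusted p = 1.86e-07 in untreated and log2 fold change 0.77, SE 0.08, adjusted p = 2.30e-07 in treated mice). The summed level of 7 oligodendrocyte markers was 21321 to 23838 CPM in untreated WT and 20719 to 25233 CPM in untreated G93A mice, and 2 of the 7 were called higher, 0 lower. Liver, the main site of transferrin synthesis, left traces in single libraries. The sum of 6 liver genes was 184 CPM in untreated G93A replicate 12 and 125 CPM in treated G93A replicate 15, and at most 19.5 CPM in the other mice of that age. The part of liver RNA and of oligodendrocytes in the values of Trf was not tested.

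The transferrin receptor Tfrc, which brings transferrin-bound iron into cells, went the other way. It was 160.0, 132, 207 and 104 CPM in untreated WT and 101, 101, 106 and 89.6 CPM in untreated G93A mice at 155 days. The spread lay in the WT group, whose lowest mouse fell within the G93A range (log2 fold change -0.55, SE 0.14, adjusted p = 0.00455). In treated mice it was 140.4, 154, 141 and 134 CPM in WT and 99.9, 92.6, 109 and 124 CPM in G93A. There the groups did not overlap, yet the test missed the threshold (log2 fold change -0.35, SE 0.14, adjusted p = 0.0584). It was called under 7 of 8 other settings, DESeq2 (adjusted p = 0.0315), the likelihood ratio test (0.0456), RLE scaling (0.0453), all genes kept (0.00962), a minimum of 10 reads per mouse (0.0414), the compared groups alone (0.00226) and the Hox score as covariate (0.0460), and not in the fit of all 32 mice. It was also called without treated G93A replicate 16 (0.0334). Of 5 erythroid markers, cells rich in the receptor, 0 were called. The part of the fall in neuron markers in the values of Tfrc was not tested.

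Steap3, the ferrireductase of the transferrin endosome, was 3.73, 4.09, 3.54 and 2.71 CPM in untreated WT and 6.996, 8.31, 5.61 and 5.66 CPM in untreated G93A mice at 155 days. Its treated values were 2.73, 2.88, 2.77 and 2.66 CPM in WT and 8.75, 7.76, 6.73 and 6.17 CPM in G93A. Both comparisons separated the groups (log2 fold change 0.97, SE 0.16, adjusted p = 9.04e-05 in untreated, log2 fold change 1.49, SE 0.16, adjusted p = 5.18e-07 in treated mice). With the Hox score as covariate the untreated log2 fold change was 0.63 (adjusted p = 0.00938). Slc11a2 (DMT1), which carries iron out of the endosome, was 28.4, 29.5, 30.4 and 29.3 CPM in untreated WT and 25.5, 30.1, 31.4 and 27.5 CPM in untreated G93A mice. These groups overlapped, and the 95% interval of the log2 fold change was -0.14 to 0.15 in untreated and -0.14 to 0.14 in treated mice.

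Slc11a1 (NRAMP1), a metal transporter of the phagosome membrane of macrophages and microglia, changed most in mRNA among the 10 genes, while its protein was not measured. In untreated mice at 155 days it was 2.17, 1.96, 2.25 and 2.32 CPM in WT and 21.1, 34.0, 39.5 and 18.5 CPM in G93A. In treated mice it was 1.58, 2.404, 2.06 and 1.94 CPM in WT and 35.2, 27.1, 29.6 and 25.3 CPM in G93A. The lowest G93A mouse stood well above the highest WT mouse (log2 fold change 3.73, SE 0.21, adjusted p = 1.74e-10 in untreated, log2 fold change 3.95, SE 0.22, adjusted p = 7.00e-11 in treated mice). All 8 microglia markers and all 6 markers of disease-associated microglia were called higher in the untreated comparison. The summed microglia markers were 331 to 415 CPM in untreated WT and 1480 to 2771 CPM in untreated G93A mice. Within the untreated G93A group, Slc11a1 and that sum stood in the same order over the 4 mice, 1480, 1709, 2466 and 2771 CPM of markers beside 18.5, 21.1, 34.0 and 39.5 CPM of Slc11a1. In treated G93A mice the order differed, 2277, 2104, 2014 and 1810 CPM of markers beside 35.2, 27.1, 29.6 and 25.3 CPM of Slc11a1. Among untreated WT mice the lowest sum, 331 CPM, stood beside the highest Slc11a1, 2.32 CPM. The part of cell numbers in the genotype difference of Slc11a1 was not tested. Summed markers of border macrophages and monocytes were low in every group, at most 4.25 CPM.

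Ferroportin (Slc40a1), the iron exporter, was 10.3, 10.8, 12.98 and 6.34 CPM in untreated WT and 9.05, 10.8, 9.14 and 9.53 CPM in untreated G93A mice at 155 days. The G93A values lay within the WT range, and the 95% interval of the log2 fold change was -0.39 to 0.36 in untreated and -0.29 to 0.45 in treated mice. Ceruloplasmin (Cp), the copper ferroxidase that works with it and that astrocytes carry on their surface, was 13.7, 12.99, 14.3 and 12.3 CPM in untreated WT and 25.4, 32.6, 38.9 and 24.1 CPM in untreated G93A mice. Its treated values were 12.9, 13.1, 11.5 and 13.95 CPM in WT and 31.9, 31.9, 36.0 and 30.1 CPM in G93A. All G93A mice lay above all WT mice (log2 fold change 1.23, SE 0.12, adjusted p = 1.56e-07 in untreated, log2 fold change 1.41, SE 0.12, adjusted p = 1.93e-08 in treated mice). All 6 astrocyte markers were called higher as well, and their sum was 4163 to 4649 CPM in untreated WT and 12548 to 16455 CPM in untreated G93A mice. The part of cell numbers in the change of Cp was not tested.

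Ireb2, which encodes the iron regulatory protein IRP2, was 54.1, 37.7, 50.3 and 30.6 CPM in untreated WT and 36.4, 35.2, 31.7 and 32.2 CPM in untreated G93A mice at 155 days. The WT mice spread on both sides of the G93A mice, and the difference missed the threshold (log2 fold change -0.30, SE 0.13, adjusted p = 0.0699). It was called by DESeq2 (adjusted p = 0.04998), with no filter on low counts (0.0313), with the Hox score as covariate (log2 fold change -0.47, adjusted p = 0.0331) and without untreated WT replicate 4 (0.00406). In treated mice Ireb2 was 44.7, 37.2, 39.4 and 39.1 CPM in WT and 38.6, 42.1, 44.7 and 43.5 CPM in G93A (log2 fold change 0.15, SE 0.13, adjusted p = 0.374). The treated groups overlapped.

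**Figure D3:**
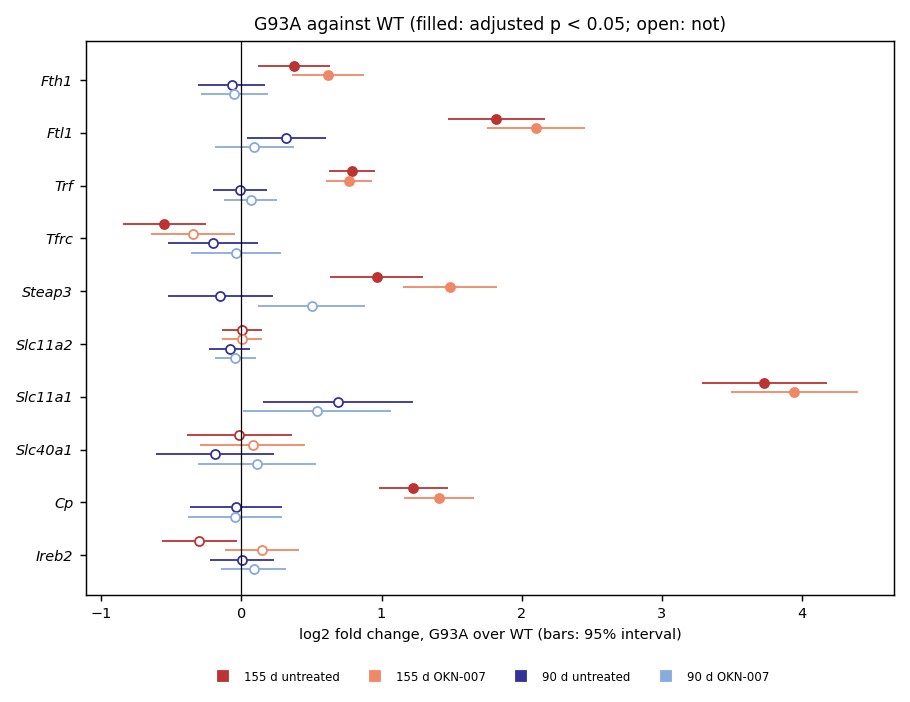
Log2 fold change of G93A over WT (x axis) for the 10 iron genes, with 95% intervals from edgeR, in untreated and OKN-007 treated mice at 155 and 90 days; filled points passed an adjusted p of 0.05. At 155 days Slc11a1 (3.73 and 3.95) and Ftl1 (1.82 and 2.10) lie farthest to the right, and no point at 90 days is filled.

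At 90 days, 0 of the 10 genes were called between G93A and WT, in untreated or in treated mice, and 0% of the 18899 genes tested were called in either comparison by edgeR's quasi-likelihood test. DESeq2 called 16 and 3 genes of the table, and 0 of the 10. At an unadjusted p under 0.05 stood 2 of the 10 genes in untreated mice, beside 5.96% of all genes, and 2 in treated mice, beside 3.95%. Slc11a1 was 2.39, 2.12, 2.82 and 3.35 CPM in untreated WT and 3.34, 4.81, 6.24 and 2.58 CPM in untreated G93A mice, which overlapped (log2 fold change 0.69, SE 0.26, adjusted p = 0.822). Ftl1 was 86.8, 80.1, 100.4 and 83.8 CPM in untreated WT and 92.8, 133, 121 and 82.7 CPM in untreated G93A mice (log2 fold change 0.32, adjusted p = 0.822). In treated mice Steap3 was 2.71, 2.60, 3.19 and 3.73 CPM in WT and 4.03, 3.95, 3.72 and 5.58 CPM in G93A (log2 fold change 0.50, adjusted p = 0.9996), and Slc11a1 had a log2 fold change of 0.54. The 95% interval of Fth1 was -0.31 to 0.17 in untreated mice, that of Trf -0.20 to 0.18 and that of Cp -0.37 to 0.29. Cp was 10.5, 12.7, 20.6 and 10.8 CPM in the untreated WT mice, and the highest of these, replicate 3, also had a sum of 3 Schwann cell markers of 1654 CPM, against at most 373 CPM in any other mouse. Groups overlapped for all 10 genes in both comparisons, where 2.5% and 2.97% of all genes did not overlap.

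The difference between ages was tested itself, in a fit of all 32 mice. The G93A change was larger at 155 than at 90 days for 5 of the 10 genes in untreated mice, Slc11a1 (by 3.04 on the log2 scale), Ftl1 (1.49), Cp (1.26), Steap3 (1.11) and Trf (0.79), with adjusted p between 6.14e-08 and 0.000915. Of 19829 genes tested, 21.2% were called, 12.9% in that direction. In treated mice those 5 and Fth1 (by 0.63, adjusted p = 0.00834) were called, beside 23% of all genes, 13% in that direction. Tfrc had differences of -0.36 and -0.34 that missed the threshold (adjusted p = 0.283 and 0.314).

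Within WT mice, ferritin heavy chain and transferrin mRNA were lower at 155 than at 90 days. G93A mice were not tested between ages. Their mean Fth1 was lower at 155 days too, 9927 against 11450 CPM untreated and 9619 against 13050 CPM treated. Mean Trf was higher at 155 days in G93A mice, 2891 against 2157 CPM untreated and 2648 against 2391 CPM treated. Fth1 went from 11343, 12105, 13006 and 12467 CPM at 90 days to 7163, 9221, 8079 and 7046 CPM at 155 days in untreated WT mice, with no overlap, as for 18.7% of all genes (log2 fold change -0.62, SE 0.12, adjusted p = 0.000787). Trf was 2050.3, 2482, 2370.0 and 1939 CPM at 90 days in these mice and also did not overlap its later values (log2 fold change -0.35, SE 0.09, adjusted p = 0.00461). These 2 of the 10 genes were called, beside 24.9% of all genes, 9.61% as lower. In treated WT mice 3 were called, Fth1 (log2 fold change -1.04), Ftl1 (-0.55) and Trf (-0.49), beside 31.3% of all genes called, 13.5% as lower, and 31.3% not overlapping. Ftl1 missed the threshold without the treated WT replicate 5 at 90 days (adjusted p = 0.0515). All 7 oligodendrocyte markers were called lower at 155 days too, in both treatments, with a sum of 32952 to 39983 CPM in untreated WT mice at 90 days. The WT mouse with the highest Fth1, the treated replicate 5 at 90 days with 17190 CPM, also had the highest sum of those markers, 53523 CPM. The part of cell make-up in the age difference was not tested, and age cannot be told apart from whatever else differed between the mice of both ages. In treated WT mice Slc11a1 missed the threshold (log2 fold change -0.64, adjusted p = 0.0542). It was called by DESeq2 (0.0255), the likelihood ratio test (0.0345), RLE scaling (0.0493), a minimum of 10 reads per mouse (0.0481), the compared groups alone (0.0207), the Hox score as covariate (0.0411), and without treated WT replicate 6 at 90 days (0.0314), and not with all genes kept. Also short of the threshold were Tfrc (0.38, adjusted p = 0.0856) and Ireb2 (0.28, adjusted p = 0.106) in untreated WT mice. Both were called without untreated WT replicate 2 at 90 days or without replicate 4 at 155 days.

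OKN-007 was compared with no treatment within each genotype and age, and 0 of the 10 genes were called in any of the 4 comparisons. Across all genes 0% were called in each, by edgeR's quasi-likelihood test, while 4.04% (G93A, 155 days), 2.94% (WT, 155 days), 5.56% (G93A, 90 days) and 4.07% (WT, 90 days) had an unadjusted p under 0.05. DESeq2 called 2 genes in WT mice at 155 days, none of them among the 10, and 0 in the other comparisons of treatment. In 2 cases the treated and untreated groups did not overlap. Ireb2 in G93A mice at 155 days was 36.4, 35.2, 31.7 and 32.2 CPM untreated and 38.6, 42.1, 44.7 and 43.5 CPM treated. All treated mice lay above all untreated mice, as for 3.13% of all genes, and the test did not pass (log2 fold change 0.32, SE 0.13, unadjusted p = 0.0199, edgeR adjusted p = 0.9996). The other case was Cp in G93A mice at 90 days, which was 12.9, 13.7, 12.9 and 12.8 CPM untreated and 11.5, 11.9, 11.7 and 11.3 CPM treated, all treated mice below all untreated, as for 3.01% of all genes (log2 fold change -0.19, adjusted p = 0.859). In WT mice the treated and untreated groups overlapped for all 10 genes at both ages, where 1.9% (155 days) and 2.09% (90 days) of all genes did not overlap. Fth1 in WT mice at 155 days had a log2 fold change of treated over untreated of -0.28 (edgeR unadjusted p = 0.0344), which did not pass after adjustment. Steap3 in WT mice had log2 fold changes of treated over untreated of -0.36 at 155 days and -0.42 at 90 days (edgeR unadjusted p = 0.0406 and 0.0325), which did not pass after adjustment.

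For the 6 genes that were higher with genotype in both treatments, the 95% intervals of the OKN-007 effect in G93A mice at 155 days were -0.30 to 0.43 for Slc11a1, -0.27 to 0.40 for Ftl1, -0.13 to 0.35 for Cp, -0.16 to 0.47 for Steap3, -0.28 to 0.04 for Trf and -0.29 to 0.22 for Fth1, on the log2 scale. Genotype by treatment interactions called 0 of the 10 genes and 0% of all genes at either age (2.34% and 2.81% of all genes at an unadjusted p under 0.05). Steap3 had interactions of 0.52 at 155 days and 0.65 at 90 days (edgeR unadjusted p = 0.0316 and 0.0192), and Ireb2 one of 0.45 at 155 days (unadjusted p = 0.0221), none of which passed after adjustment. A p above the threshold does not show that treated and untreated mice were alike.

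**Figure D4:**
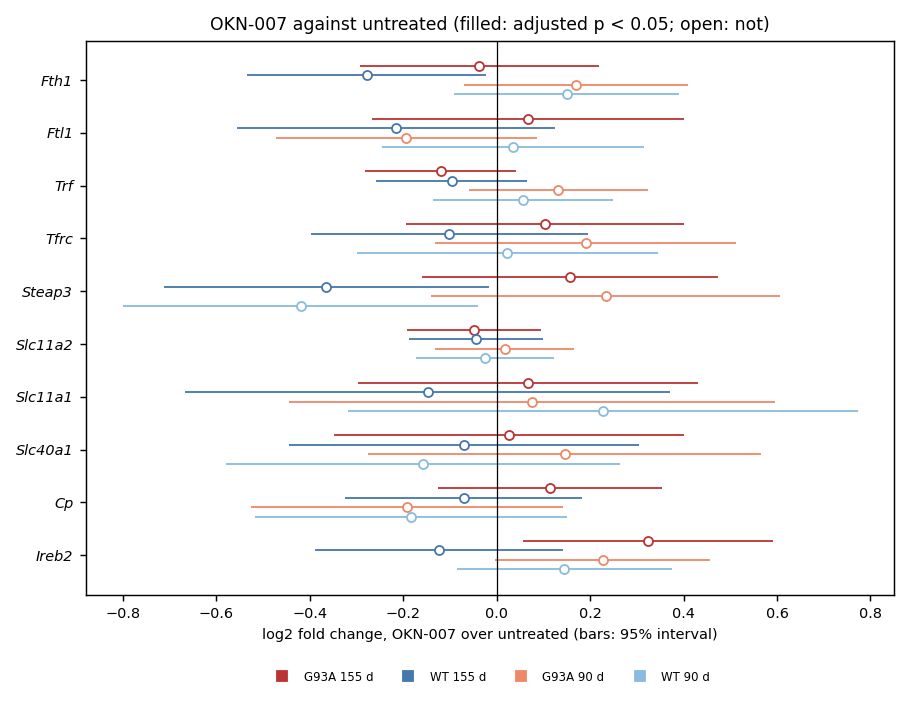
Log2 fold change of OKN-007 over untreated (x axis) for the 10 iron genes in G93A and WT mice at 155 and 90 days, with 95% intervals from edgeR; all 40 points are open, none having passed an adjusted p of 0.05. Ireb2 in G93A mice at 155 days (0.32) lies farthest to the right.

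The other genes of iron and heme handling were taken as a list of 63, of which 55 were tested at 155 days. In untreated mice 15 were higher in G93A, 7 were lower and 33 were not called, that is 27.3% higher and 12.7% lower. Over all genes the shares were 21.3% and 18.2%. In treated mice 16 were higher and 7 lower. The median log2 fold change of the 55 was 0.056 in untreated mice. No gene of the list was called in a 90 day, OKN-007 or interaction comparison.

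Among ferroxidases and ferrireductases 3 of 5 tested were higher and 1, Steap2 (-0.74, edgeR adjusted p = 0.00117), was lower. Frrs1, a ferric reductase, was 1.56, 0.766, 1.75 and 1.67 CPM in untreated WT and 6.73, 10.2, 12.9 and 6.99 CPM in untreated G93A mice (log2 fold change 2.70, SE 0.22, adjusted p = 1.73e-08). Steap4 and Cybrd1, metalloreductases of the cell membrane, had log2 fold changes of 2.31 and 1.40 (edgeR adjusted p = 8.61e-05 and 8.36e-05). Of 13 genes of heme handling 3 were higher and 0 lower. Hmox1, the heme oxygenase that frees iron from heme, was 4.22, 4.94, 5.79 and 4.58 CPM in untreated WT and 22.1, 47.8, 45.8 and 23.7 CPM in untreated G93A mice (log2 fold change 2.87, SE 0.22, adjusted p = 8.83e-09). The hemopexin receptor Lrp1 and the heme and porphyrin exporter Abcg2 rose less, by 0.59 and 0.53 on the log2 scale (adjusted p = 4.14e-05 and 0.00126).

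Carriers of iron outside transferrin counted 2 higher and 1 lower of 6. Slc39a14 (ZIP14) was 21.8, 18.9, 22.0 and 22.3 CPM in untreated WT and 44.7, 60.5, 74.1 and 46.7 CPM in untreated G93A mice (log2 fold change 1.45, SE 0.13, adjusted p = 9.01e-08). Lcn2, the siderophore-binding lipocalin, was 0.114, 1.58, 0.855 and 1.21 CPM in untreated WT and 1.65, 3.75, 32.8 and 1.46 CPM in untreated G93A mice, so that 1 mouse carried most of its signal and the groups overlapped (log2 fold change 3.42, SE 0.83, adjusted p = 0.00273). In treated mice the groups of Lcn2 did not overlap, 1.08, 0.481, 0.674 and 0.575 CPM in WT and 3.74, 4.35, 5.88 and 2.43 CPM in G93A (log2 fold change 2.62, adjusted p = 0.0199). Its receptor Slc22a17 fell by 0.26 on the log2 scale in untreated mice (adjusted p = 0.00882).

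On the hepcidin axis 4 of 8 tested genes were higher and 0 lower, among them Hfe (log2 fold change 1.15, adjusted p = 2.45e-05), Bmp6 (1.09, adjusted p = 1.76e-05), the ligand that induces hepcidin, and Id1 (0.63, adjusted p = 0.0267). In treated mice Hfe (1.13) and Bmp6 (1.33) were called again, the only 2 of the 8. Hepcidin itself (Hamp), with 0 to 39 reads in a mouse, was too low to pass the filter in the fits of a single age. It passed in the fit of all 32 mice and was not called in any age comparison there. Its highest levels, 1.27 and 1.08 CPM, were in untreated G93A replicate 12 and treated G93A replicate 15, the libraries with the highest liver sums. Of 6 genes of iron sensing and ferritin turnover, Pcbp2, an iron chaperone, was higher (0.20, adjusted p = 0.0217) and Herc2, a ubiquitin ligase of the ferritin receptor Ncoa4, lower (-0.46, adjusted p = 0.00152). In treated mice Herc2 was called again and Pcbp2 was not. Aco1, which encodes IRP1, had a log2 fold change of 0.11 (adjusted p = 0.343).

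Mitochondrial iron genes counted 1 higher and 3 lower of 12. The higher one was Alas1, which starts heme synthesis (0.24, adjusted p = 0.0089). Among the lower ones were the scaffold Iscu (-0.32) and the glutaredoxin Glrx5 (-0.30), both of iron-sulfur cluster assembly, with adjusted p of 0.00516 and 0.0117. All 6 neuron markers were lower in the same comparison, with log2 fold changes of -0.91 to -0.39, and their part in these values was not tested. Of 5 genes of transferrin receptor trafficking, the recycling factor Ehd1 rose by 0.35 and the small GTPase Rab11a fell by 0.22 on the log2 scale (adjusted p = 0.000443 and 0.0113).

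**Figure D5:**
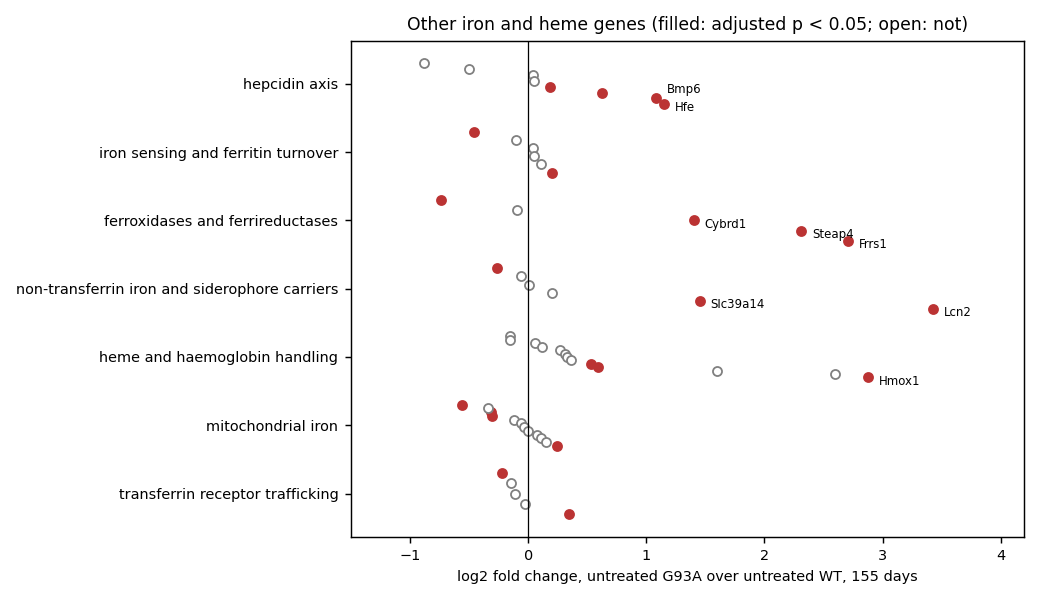
Log2 fold change of untreated G93A over untreated WT at 155 days (x axis) for the 55 tested genes of iron and heme handling, by role (y axis); filled points passed an adjusted p of 0.05, and names mark called genes beyond 0.8 on the log2 scale. Of the called genes, Lcn2 (3.42), Hmox1 (2.87), Frrs1 (2.70) and Steap4 (2.31) lie farthest to the right.

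Genes that share the hairpins shown above did not move as 1 group. Of the 4 members with a hairpin of this strict form in a UTR, Ftl1 and Fth1 rose, Tfrc fell and Slc40a1 was not called at 155 days in untreated mice. Among genes outside the 10 with the hairpin in a 5′ UTR, the ferritin copy Ftl1-ps1 was higher, and Alas2 (log2 fold change -0.71, adjusted p = 0.0973) and Ppp1r1b (-0.10, adjusted p = 0.804) were not called. In the RefSeq promoter windows (GRCm39, 250 bases before to 50 after each start), 13 windows matched 7 of the 10 genes. The antioxidant response element core TGACNNNGC, read on both strands, was in 0 of these 13 windows and in 12.4% of 32851 windows. Sites farther from the starts were not searched, and 13 windows of 7 genes are too few to set against that share. The letters CAGTGN, read on the sense strand only, were in 5 of the 13 and in 34.6% of all.

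Likeness was measured as Pearson's r of log2(CPM + 1) over the 32 mice, and, beside it, as r of the deviations from the 8 group means. These are descriptions, since all genes of a mouse share its library. Slc11a1 was most like Ctsz, a lysosomal cathepsin (r = 0.993, within groups 0.840), and Cd84 (0.992, within groups 0.803). Ftl1 was most like the lysosomal tetraspanin Cd63 (0.986, within groups 0.842) and the microglia marker Aif1 (0.985). Cp stood closest to C1ra (0.968, within groups 0.728) and Sardh (0.967, within groups 0.756). Fth1 stood closest to Gsn (0.943, within groups 0.821) and Taldo1 (0.933, within groups 0.824), and Trf to the choline transporter Slc44a1 (0.938, within groups 0.759) and Anxa5 (0.936, within groups 0.559). Steap3 followed Gnai2 (0.922, within groups 0.543) and Dap (0.912, within groups 0.504). Ireb2 followed Rif1 (0.944, within groups 0.940) and Tmem106b (0.927, within groups 0.916), and Tfrc followed Gm43268 (0.869, within groups 0.809) and Phactr2 (0.858, within groups 0.789). Slc40a1 was nearest to Fzd6 (0.835, within groups 0.825) and Tnfsf10 (0.828, within groups 0.832), and Slc11a2, which varied least, to Smg5 (0.673, within groups 0.576) and Polrmt (0.658, within groups 0.579).

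Among the 10 genes themselves, Ftl1 and Slc11a1 had the highest r over the 32 mice (0.964, within groups 0.639). The ferritin chains were linked mainly within groups, with r = 0.763 for deviations of Fth1 and Ftl1 from their group means against 0.243 over all mice. Tfrc and Ireb2 likewise varied together within groups (r = 0.760, and 0.696 over all mice).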

How the data were processed

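Spinal cord mRNA of 32 mice (TruSeq Stranded mRNA, Illumina sequencing) was deposited by the authors as 1 table of raw read counts per gene. The submitters' processing notes name FastQC, STAR, featureCounts and edgeR with the builds GRCm39 and mm39 (and hg38), with no versions. The study's methods describe another counter and annotation release, and the table holds 820 gene IDs that a GRCm38 annotation lacks, so the description of the notes was followed. Whether counting used strand is not given in the sources used here. GENCODE M21 (GRCm38) gave symbols for 41203 of 42524 IDs (96.9%), exon lengths for RPKM and transcripts for the hairpin search, and promoters came from RefSeq. No coordinates on chromosomes are printed.

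From the deposited counts, TMM-normalized CPM and edgeR 4.0.16 quasi-likelihood tests (R 4.3.3, filterByExpr, Benjamini-Hochberg adjustment, threshold 0.05) were computed. The 16 mice of an age shared a fit, and age comparisons used all 32. Likeness used log2(CPM + 1). The ratio of the ferritin chains used an exact permutation test over 70 assignments. Fits were tested on simulated data. Alternatives were RLE scaling, DESeq2 1.42.0, a likelihood ratio test in edgeR, other filters, other sample sets, the Hox covariate and leaving out each mouse. Each library was taken as 1 mouse, and no pair of libraries of the same group agreed within sampling noise. Pairs across groups were not compared. Named genes are the 10 members, called genes of the iron list, and the 2 genes most like each member. Some genes that this rule or the hairpin search would name are not reported here. The members and lists were chosen with earlier results of these data known.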

Additional observations from a re-analysis of the deposited data

Results flagged for a closer look

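Within groups of 4 mice, 2 single values stood far from the other 3 by Dixon's criterion. Steap3 was 5.58 CPM in treated G93A replicate 16 at 90 days, where the next mouse had 4.03 CPM. Cp was 13.7 CPM in untreated G93A replicate 10 at 90 days, where the next had 12.9 CPM. Over the 96 groups examined, chance alone would give about 4.8 such values.

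The G93A change differed between 155 and 90 days, by the interaction test of edgeR's quasi-likelihood fit. In untreated mice it was larger at 155 days by 3.04 for Slc11a1 (adjusted p = 6.14e-08), 1.49 for Ftl1 (8.41e-06), 1.26 for Cp (3.59e-05), 1.11 for Steap3 (0.000915) and 0.79 for Trf (1.86e-05), on the log2 scale. In treated mice it was larger by 3.37 for Slc11a1 (adjusted p = 7.13e-09), 1.98 for Ftl1 (6.60e-08), 1.43 for Cp (5.20e-06), 0.95 for Steap3 (0.00397), 0.67 for Trf (0.000167) and 0.63 for Fth1 (0.00834).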

How the results depend on the processing

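No value of the 10 genes that passed the threshold changed direction under any alternative. Of 800 gene values under other settings 775 kept their direction and their side of the threshold, and of 800 with 1 mouse left out 768 did. The exceptions among called genes, Fth1 in untreated G93A against WT mice at 155 days and Ftl1 between ages in treated WT mice, stand beside their results. The number of the 10 genes called between ages in untreated WT mice ranged from 2 to 4 with 1 mouse left out, 4 without replicate 2 at 90 days or replicate 4 at 155 days. The log2 ratio of Fth1 to Ftl1 in untreated mice at 90 days ranged from -0.43 to -0.26, and lost its call (adjusted p = 0.114, exact permutation) without any 1 untreated WT mouse. Counts over all genes moved by more than 1.5 times, or from 0 to another number, in 20 of 110 settings and 5 of 144 fits without 1 mouse. Where edgeR called 0 genes between genotypes at 90 days (untreated and treated), DESeq2 called 16 and 3, the likelihood ratio test 11 and 3, and a fit with no filter 39 and 24. Between treatments, the fit with no filter called 17 (G93A, 155 days), 10 (WT, 155 days), 8 (G93A, 90 days) and 14 (WT, 90 days), and for interactions 8 and 3, where the other settings called 4 at most. The age comparison in WT mice called 3115 genes in place of 4933 without untreated replicate 4 at 90 days, and 3783 in place of 6209 without treated replicate 5 at 90 days. Deviations of same-numbered mice of both ages had r from -0.22 to 0.26. Such values cannot settle whether the numbers tie the mice together, and the main fits took them as separate. With a replicate block, the age comparisons called 6, 6, 3 and 4 of the 10 genes (Fth1 added for the untreated G93A change, Ftl1 in untreated WT, Slc11a1 in treated WT). A fit of only the compared groups was not run for interactions. With 4 mice a group, counts of 0 do not show that genotypes at 90 days or treatments were alike.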
